A study of Mus musculus with 3 samples.

Results

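The gene set described here holds 33 genes of bone morphogenetic protein (BMP) signalling: 9 ligands, 7 receptors, 6 Smads, 7 secreted antagonists and modulators, and the 4 Id genes, which are direct targets of the pathway. An accessible region belonged to a gene of the set when that gene had the nearest end of any protein-coding gene, within 50 kb of the region's best-ranked summit. This rule gave 186 regions out of 51389 that lay within 50 kb of a protein-coding gene end and out of 67219 regions in all. The regions fell to 32 of the 33 genes, and Grem1 had none.

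The assay was ATAC-seq, in which a transposase cuts open chromatin and tags it for sequencing. The mouse cells carried the label mesenchymal stem cells, and the study's subject was heterotopic ossification (bone that forms outside the skeleton). The first library came from cells of the immobilized group at day 7 after injury. The second came from cells of the non-immobilized group at day 7 after injury, and the third from cells taken at day 0, before injury. The sources used here do not give strain, sex, age, genotype, the kind of injury, how immobilization was done, how cells were isolated or whether animals were pooled. Since every group is a single library, the differences have no replicate check and carry no p-value. Intervals in brackets are exact (Clopper-Pearson) 95% intervals of a share, for counting error only.

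The libraries held 143818952 (immobilized), 173029378 (non-immobilized) and 176119937 read pairs (day 0), with an estimated 75269683, 90136518 and 63640194 aligned pairs left after duplicates in the same order. Each list was reduced by score to 47912 summits, the length of the non-immobilized list, so 28.9% of the immobilized and 7.37% of the day 0 summits were left out as the weakest. A region is called in a library when a summit of that reduced list lies in it. An uncalled region is therefore not shown to be closed, and a smaller share of cells with an open region cannot be told apart from a weaker opening in each cell. The cells' label was checked against marker genes. All 12 mesenchymal marker genes had a region in some library, with summed counts of 53 regions in the immobilized, 53 in the non-immobilized and 59 in the day 0 library, although Ly6a and Lepr had none in the non-immobilized one. The 11 keratinocyte markers summed to 56, 17 and 13 regions, and Krt5, Krt14, Krt17 and Dsg3 were at 0 in the non-immobilized and day 0 libraries. The 12 endothelial markers summed to 48, 74 and 33 regions, with Sox17, Sox18 and Robo4 at 0 at day 0. The 9 leukocyte markers summed to 9, 11 and 8 regions, and Itgam, Adgre1, Lyz2 and Cd3e were at 0 in every library. The 6 skeletal muscle markers summed to 15, 14 and 22 regions.

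BMP ligands are secreted dimers that bring type I and type II serine/threonine kinase receptors together at the cell surface. The type I receptor then phosphorylates Smad1, Smad5 or Smad9, which enter the nucleus with Smad4 and activate genes such as Id1, Id2 and Id3, whose products hold back basic helix-loop-helix factors. Smad6 and Smad7 are induced by the pathway and inhibit it, and noggin, chordin, gremlin and follistatin bind ligands outside the cell. BMP signalling drives cartilage and bone formation, and activating mutations of the type I receptor gene ACVR1 cause the human heterotopic ossification disease fibrodysplasia ossificans progressiva.

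The starts of Id2, Id3 and Id4 are shown because the Id genes are the pathway's targets, and those of Smad5, Smad6 and Bmpr1b because a region at their start was called in some libraries and not in others. Each run is 300 bases from RefSeq (GRCm38.p6), 250 before and 50 after the annotated start, read 5′ to 3′ on the gene's strand. Capitals mark GGCGCC and GGAGCC, GC-rich motifs of the kind bound by BMP Smads, searched on both strands, so GGAGCC can also appear as GGCTCC.
Id2, chr12:25096043-25096342, minus strand: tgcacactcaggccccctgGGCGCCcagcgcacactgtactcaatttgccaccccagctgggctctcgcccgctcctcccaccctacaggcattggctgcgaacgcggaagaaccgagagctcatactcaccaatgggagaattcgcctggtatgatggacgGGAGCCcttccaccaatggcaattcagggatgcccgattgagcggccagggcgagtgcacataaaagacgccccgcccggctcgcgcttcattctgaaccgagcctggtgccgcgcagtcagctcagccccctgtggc
Id3, chr4:136143572-136143871, plus strand: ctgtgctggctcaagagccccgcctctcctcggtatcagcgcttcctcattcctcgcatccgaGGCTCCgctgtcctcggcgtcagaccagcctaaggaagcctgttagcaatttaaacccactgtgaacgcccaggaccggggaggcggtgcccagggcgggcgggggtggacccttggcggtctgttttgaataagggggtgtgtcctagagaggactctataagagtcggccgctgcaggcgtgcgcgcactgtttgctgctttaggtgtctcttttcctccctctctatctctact
Id4, chr13:48260866-48261165, plus strand: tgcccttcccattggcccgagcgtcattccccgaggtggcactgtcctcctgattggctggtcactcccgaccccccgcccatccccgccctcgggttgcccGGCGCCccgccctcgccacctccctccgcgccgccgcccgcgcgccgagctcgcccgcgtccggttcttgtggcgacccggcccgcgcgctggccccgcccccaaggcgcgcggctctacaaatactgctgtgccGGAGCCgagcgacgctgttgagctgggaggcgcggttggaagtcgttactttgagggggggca
Smad6, chr9:64022010-64022309, minus strand: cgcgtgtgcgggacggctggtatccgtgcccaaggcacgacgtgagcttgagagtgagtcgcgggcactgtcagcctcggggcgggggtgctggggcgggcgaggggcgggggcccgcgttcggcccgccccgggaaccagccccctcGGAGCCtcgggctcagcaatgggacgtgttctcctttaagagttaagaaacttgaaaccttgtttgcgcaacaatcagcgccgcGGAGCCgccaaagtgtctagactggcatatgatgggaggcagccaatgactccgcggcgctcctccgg
Smad5, first start, chr13:56702760-56703059, plus strand: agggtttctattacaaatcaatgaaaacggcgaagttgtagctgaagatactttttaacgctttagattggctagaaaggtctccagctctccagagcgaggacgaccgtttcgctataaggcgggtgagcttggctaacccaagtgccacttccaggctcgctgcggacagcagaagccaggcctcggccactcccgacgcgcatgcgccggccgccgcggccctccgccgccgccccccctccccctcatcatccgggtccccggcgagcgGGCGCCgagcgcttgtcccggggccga
Smad5, downstream start, chr13:56703418-56703717, plus strand: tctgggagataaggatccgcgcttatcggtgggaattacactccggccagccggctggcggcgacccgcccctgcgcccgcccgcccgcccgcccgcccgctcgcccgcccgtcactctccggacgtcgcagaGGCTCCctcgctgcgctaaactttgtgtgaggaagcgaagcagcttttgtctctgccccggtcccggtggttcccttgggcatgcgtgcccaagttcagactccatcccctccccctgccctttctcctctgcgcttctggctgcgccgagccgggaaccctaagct
Bmpr1b, internal start, chr3:141982215-141982514, minus strand: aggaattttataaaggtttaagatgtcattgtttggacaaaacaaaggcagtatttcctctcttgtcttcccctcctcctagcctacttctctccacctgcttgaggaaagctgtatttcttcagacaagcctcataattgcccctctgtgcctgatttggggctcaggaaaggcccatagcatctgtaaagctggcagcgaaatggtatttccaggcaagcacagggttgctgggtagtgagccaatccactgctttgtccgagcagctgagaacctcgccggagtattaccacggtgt

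RefSeq starts were found for 22 of the 33 genes, 26 starts in all, and not for Bmp2, Bmp3, Bmp7, Gdf5, Gdf6, Acvrl1, Smad4, Smad7, Nog, Fst and Id1. Of these 26 starts, 10 held GGCGCC, 16 held GGAGCC and 21 held either motif. The starts are not all independent: 20 genes had 1 start, and Smad5 and Bmpr1b had several. The window of the first Smad5 start overlapped that of another, and both counted the same GGCGCC. The share over all 31396 autosomal starts in the table was 12.1% for GGCGCC, 31.2% for GGAGCC and 37.6% for either. Those 26 starts were also rich in G and C, with a median GC content of 67.5% against 53.0% over all starts. Among the 11743 starts that had a region in all 3 libraries, the GC content was 62.7% and the shares were 24.2%, 44.4% and 56.7%. The shorter Smad-binding motif GTCT was in 23 of the 26 starts and in 88.0% of all starts. The E-box CANNTG, the site of helix-loop-helix factors, was in 11 of the 26 and in 72.2% of all. Among the starts with a region in all 3 libraries, GTCT was in 84.8% and CANNTG in 60.8%. Matches overlapped each other in 1 start, that of Chrd. A match describes the letters in these windows and is not evidence of binding.

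Across the 33 genes the number of regions was similar in the 3 libraries, with 133 in the immobilized, 134 in the non-immobilized and 140 in the day 0 library. These were 0.355%, 0.363% and 0.387% of each library's regions near protein-coding genes. The genes of the set had a median of 5 regions, against 1 over all 20661 autosomal protein-coding genes. Regions called in all 3 libraries numbered 94 of 186, or 50.5% (43.1 to 57.9), against 48.5% over all genes. Of the other 92 regions, 18 were called in the immobilized library alone, 13 in the non-immobilized alone and 28 at day 0 alone, and the shares over all genes were 11.1%, 10.2% and 12.2%. The day 7 libraries shared 15 regions that day 0 lacked (8.30% over all genes), the immobilized library and day 0 shared 6 (4.98%), and the non-immobilized library and day 0 shared 12 (4.78%). Smad6 (18 regions), then Smad7, Id3 and Fstl1 (11 each), had the most regions of the set. Ligands had 25, 22 and 31 regions in the immobilized, non-immobilized and day 0 libraries, receptors 19, 17 and 19, Smads 33, 37 and 34, antagonists 26, 28 and 32, and Id genes 30, 30 and 24.

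**Figure D1:**
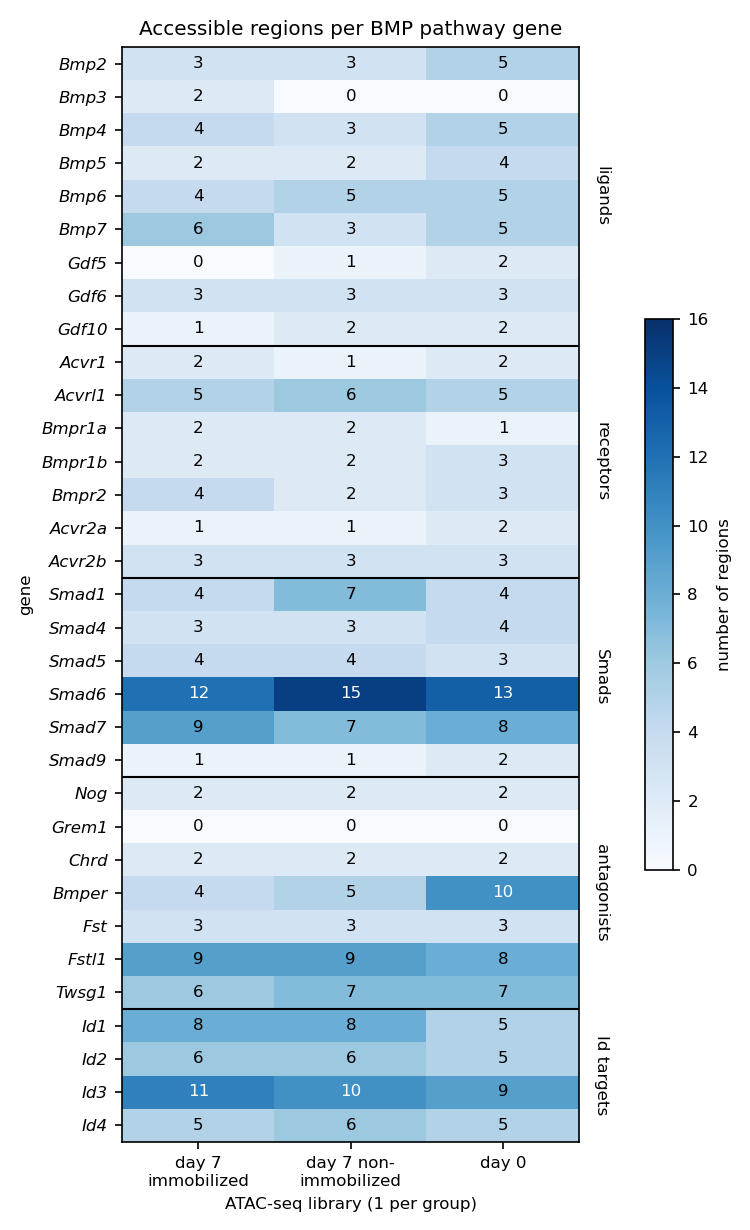
Number of accessible regions assigned to each of the 33 BMP genes (rows, grouped by role) in each library (columns; darker blue is more regions; 1 library per group). Bmper stands at 4, 5 and 10 regions and Id1 at 8, 8 and 5 in the immobilized, non-immobilized and day 0 columns, while Nog, Chrd, Fst, Gdf6 and Acvr2b have equal numbers in all columns.

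In the immobilized library set against the non-immobilized one, the immobilized library had 24 regions of the 33 genes that the other lacked, the non-immobilized library had 25, and both had 109. The background over all genes was 18.3% of the pair's regions in the immobilized library and not the other, and 17.1% the other way round. The BMP genes stood near it, at 15.2% and 15.8%. Of the one-library regions 49.0% (34.4 to 63.7) were in the immobilized library, against 51.7% over all genes. More regions were called in the immobilized library for 7 genes and in the non-immobilized library for 9. The other 17 had equal numbers, Grem1 at 0 among them. These gene counts were not made over all genes, where the median difference of genes with a region was 0. Bmp7 differed by 3 regions towards the immobilized library, and Smad1 and Smad6 by 3 regions towards the non-immobilized one. With the lists as deposited, unequal in length, 60 regions were called only in the immobilized library and 13 only in the non-immobilized one; that share of 82.2% stood beside 80.6% over all genes.

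For the immobilized library against day 0, the counts were 33 regions only in the immobilized library, 40 only at day 0 and 100 in both. The background was 21.6% for the immobilized library and 18.9% for day 0, and the BMP genes had 19.1% and 23.1%. The immobilized library held 45.2% (33.5 to 57.3) of the one-library regions, an interval that includes the 53.4% of all genes. Id1 had 3 more regions in the immobilized library, and Bmper had 6 more at day 0. The non-immobilized library set against day 0 had 28 regions of its own, 34 were called only at day 0 and 106 in both. Here the background was 20.8% for the non-immobilized library and 19.3% for day 0, and the BMP genes had 16.7% and 20.2%. The non-immobilized library held 45.2% (32.5 to 58.3) of these one-library regions, against 51.9% over all genes, with Id1 and Smad1 3 regions higher and Bmper 5 regions lower than at day 0. Both comparisons use the same day 0 library, so they are not independent of each other.

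**Figure D2:**
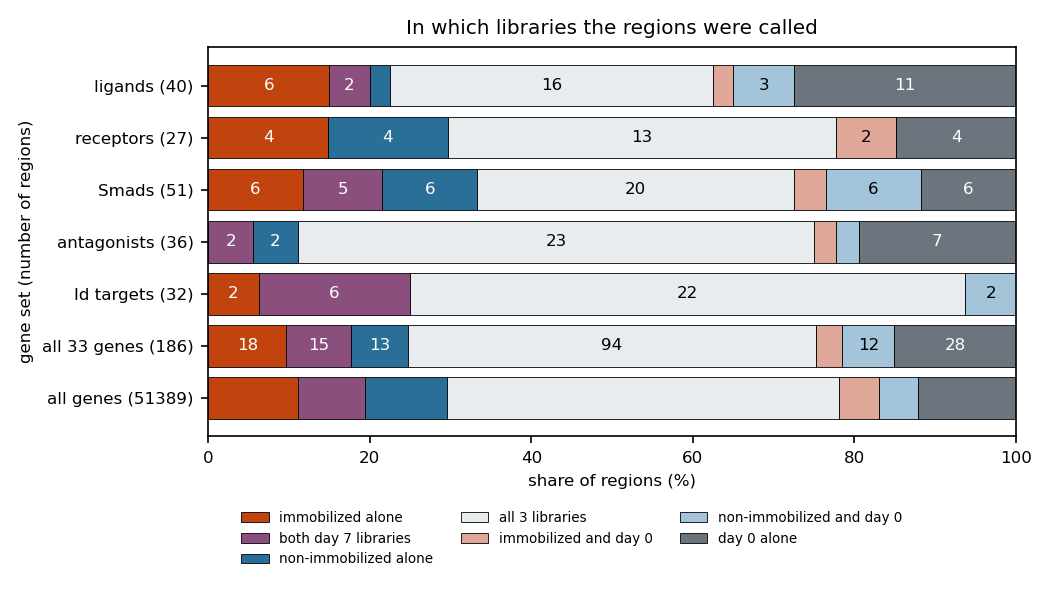
Share of regions (x axis, %) by the libraries in which they were called, for each role, for all 33 genes and for all protein-coding genes (rows; number of regions in brackets; numbers in the bars are regions). The day 0 end of the bar is widest for ligands, with 11 of 40 regions called at day 0 alone, and empty for Id genes, where 6 of 32 regions were called in both day 7 libraries and not at day 0.

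The ligands were the role with the largest number of regions called at day 0 alone, 11 of 40 (27.5%, 14.6 to 43.9), against 12.2% over all genes. In the immobilized library against day 0 they had 8 and 14 one-library regions, and in the non-immobilized library against day 0 they had 3 and 12, so that the day 7 library held 36.4% (17.2 to 59.3) and 20% (4.33 to 48.1). The second interval lies below the 51.9% of all genes. It was 1 of 15 such shares, for 5 roles in 3 comparisons, and no allowance was made for that number. Set against day 0, the non-immobilized library had fewer regions at 5 of the 9 ligand genes, the same number at 4 and more at 0. No such gene count was made over all genes. Most of the ligands' day 0 regions were weak: on lists of the 23956 best summits, the immobilized library and day 0 had 3 and 2 one-library regions, and the non-immobilized library and day 0 had 2 and 3, with 51.3% and 52.1% in the day 7 library over all genes. With the lists as deposited, the immobilized library had 15 ligand regions that day 0 lacked and day 0 had 11, a share of 57.7% against 73.1% over all genes on those lists. The non-immobilized library and day 0 then had 3 and 15, or 16.7% against 45.7% over all genes.

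Bmp2 and Bmp4 encode closely related ligands that induce bone and cartilage. Bmp2 had 3, 3 and 5 regions in the immobilized, non-immobilized and day 0 libraries, and Bmp4 had 4, 3 and 5. The region at the Bmp2 gene end with the lower coordinate, 18 bp inside the gene, was called in every library and ranked at 20.2%, 19.8% and 20.4% of the lists (0 is the best score). Its day 0 regions of no other library lay 30.8 kb from the gene and 1.3 kb inside it, and ranked at 56.9% and 70.2%. For the first of these the immobilized list held a weaker summit that had been left out. The region at the Bmp4 start ranked at 70.4% in the immobilized and 71.5% in the non-immobilized library, and better, at 36.1%, at day 0.

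Bmp7, a ligand of kidney, eye and skeletal development, had 6 regions in the immobilized, 3 in the non-immobilized and 5 in the day 0 library. Only the region 19 bp inside its gene end (rank 40.2%, 43.3% and 67.9%) and a region 36.7 kb away (49.1%, 81.3% and 57.1%) were called in all 3 libraries. The immobilized library alone held 3 regions, 43.3 kb, 42.6 kb and 4.6 kb from the gene, ranked at 90.3%, 56.3% and 72.6%. Day 0 alone held 3 others, 2.3 kb and 549 bp beyond the gene and 28.9 kb inside it. In the one at 549 bp the whole immobilized list held a left-out summit. The difference of 3 regions between the day 7 libraries was reached or passed in that direction by 361 of 15122 genes with a region (2.39%). That share includes genes with too few regions to differ by 3. The Bmp7 difference was 1 with the added rule that takes every region within 50 kb. Bmp3, an antagonistic member of the ligand family, had 2 regions in the immobilized library and none in the others. They lay 10 kb from the gene and 406 bp inside it, on chromosome 5 at 98844177 to 98844677 and 98854571 to 98855071, and ranked at 94.1% and 83.0%. The nearest day 0 summit to the second was 182336 bp away. The keratinocyte markers (56, 17 and 13 regions) were, like the regions of both genes, highest in the immobilized library. They were lowest at day 0, where Bmp7 had 5 regions against 3 in the non-immobilized library. The part of the markers in the result was not tested.

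Bmp5 had 2 regions in each day 7 library and 4 at day 0. The shared ones lay 10 kb and 27.3 kb beyond the gene, and both day 0 regions lay inside it with no summit of another library within 50 kb. Bmp6, a ligand also known for iron homeostasis, had 4, 5 and 5 regions, with both regions within 1 kb of its start called in every library. Of its other 6 regions, 4 were called in a single library. Gdf5, a ligand of joint formation, had no region in the immobilized, 1 in the non-immobilized and 2 in the day 0 library. The whole immobilized list held a left-out summit in both of those. Gdf6, its close relative, had 3 regions in each library, all shared, and Gdf10 had 1, 2 and 2.

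The receptors had nearly equal numbers of regions in the 3 libraries, and most regions at their gene ends were shared. Of 11 receptor regions within 1 kb of a gene end, 9 were called in all 3 libraries (81.8%, 48.2 to 97.7, against 76.1% over all genes), and of 16 farther away 4 were (25.0%, 7.27 to 52.4, against 38.2%). In the immobilized library against the non-immobilized one receptors had 6 and 4 one-library regions, in the immobilized library against day 0 they had 4 and 4, and in the non-immobilized library against day 0 they had 4 and 6. All 3 intervals of these shares include the 51.7%, 53.4% and 51.9% of all genes. The start region of Acvr1, the type I receptor mutated in fibrodysplasia ossificans progressiva, ranked at 6.27%, 10.5% and 8.13% in the immobilized, non-immobilized and day 0 libraries. Acvr1 had 2, 1 and 2 regions: the other 2 were 38.1 kb inside the gene, in the immobilized library alone, and 30.3 kb beyond it, at day 0 alone. In the region 30.3 kb beyond the gene the whole immobilized list held a left-out summit.

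The type II receptor genes Acvr2a, Acvr2b and Bmpr2 likewise had a region at or near the start in every library. The ranks were 5.67%, 12.4% and 10.8% for Acvr2a, 7.59%, 5.96% and 5.36% for Acvr2b, and 10.3%, 5.51% and 7.39% for the region 756 bp before Bmpr2. Acvr2a had 1, 1 and 2 regions, Acvr2b 3 in each library, and Bmpr2 4, 2 and 3. Bmpr1a, a widely expressed type I receptor gene, had 2, 2 and 1 regions, of which only the start region (14.2%, 13.1% and 11.0%) was shared.

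Bmpr1b, a type I receptor of cartilage, had 2, 2 and 3 regions, with a region 265 bp inside a gene end at ranks of 34.0%, 29.5% and 29.8%. The internal start printed above held a summit in the non-immobilized library alone, -77 bp from the start and at a rank of 99.2%, the weak end of the list. That region lay over 50 kb from either end of Bmpr1b, so it was not among the 186. Acvrl1, a type I receptor of endothelial cells, had 5, 6 and 5 regions. Both of its regions in the non-immobilized library alone lay beyond the gene, at 903 bp and 2.7 kb, and ranked at 98.1% and 96.5%. The endothelial markers had 48, 74 and 33 regions in the same order of libraries; their part was not tested.

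The Smads had 8 regions in the immobilized library and 12 in the non-immobilized one that the other lacked (40% in the immobilized library, 19.1 to 63.9, against 51.7% over all genes). Of 9 regions within 1 kb of a Smad gene end, 4 were called in all 3 libraries (44.4%, 13.7 to 78.8), an interval that includes the 76.1% of all genes. The 5 that were not were 2 at Smad5, 2 at Smad6 and 1 at Smad7. At Smad5, whose product is a BMP-activated Smad, the day 7 summits lay 686 bp (immobilized) and 659 bp (non-immobilized) past the first start and ranked at 20.3% and 16.8%. They fell at the downstream start printed above, 28 and 1 bp past it. The day 0 summit lay -53 bp from the first start and ranked at 17.8%. The nearest day 7 summit and the day 0 summit were 712 bp apart. At Smad6, which encodes an inhibitory Smad, the immobilized summit lay -25 bp from the start at a rank of 17.5%. The non-immobilized and day 0 summits lay -972 and -951 bp from it at ranks of 12.7% and 14.1%. At each gene every library had a summit within 1 kb of the first printed start, and 1 library stood apart: day 0 at Smad5 and the immobilized library at Smad6. A deposited summit is the highest point of a peak, so these values do not show whether the rest of the start was covered.

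Smad1, which encodes another BMP-activated Smad, had 4 regions in the immobilized, 7 in the non-immobilized and 4 in the day 0 library. The start region (16.9%, 15.7% and 19.8%) and a region 12 kb inside the gene (20.2%, 26.9% and 49.4%) were called in all. The non-immobilized library alone held 3 regions, 15.1 kb beyond the gene and 17.6 kb and 16.4 kb inside it, ranked at 62.0%, 87.7% and 65.3%. In the first of these the whole immobilized list held a left-out summit. The Smad1 difference of 3 regions from the immobilized library was reached or passed by 283 of 15122 genes (1.87%) and that from day 0 by 495 (3.27%). These shares include genes with too few regions to differ by 3. Smad6 had 12, 15 and 13 regions. The immobilized library had 2 regions that the non-immobilized one lacked, and there were 5 the other way round. Those 5 lay 3.2 kb inside the gene and 946 bp, 23.1 kb, 38.3 kb and 46.0 kb beyond it, and the last 3 held left-out summits of the immobilized list. With the lists as deposited Smad1 and Smad6 each had 2 regions more in the immobilized than in the non-immobilized library, the opposite direction. With regions within 10 kb alone, Smad1 differed by -1 between the non-immobilized library and day 0. The endothelial markers moved in the same order as these counts between the day 7 libraries (48 and 74 regions); their part was not tested.

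The common partner gene Smad4 had 3, 3 and 4 regions and a region at its gene end ranked at 14.0%, 14.0% and 13.8%. Smad7, the other inhibitory Smad gene, had 9, 7 and 8 regions, with a region 44 bp beyond its gene end at 21.9%, 15.4% and 12.3%. Smad9 had 1, 1 and 2, the shared one at its start.

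**Figure D3:**
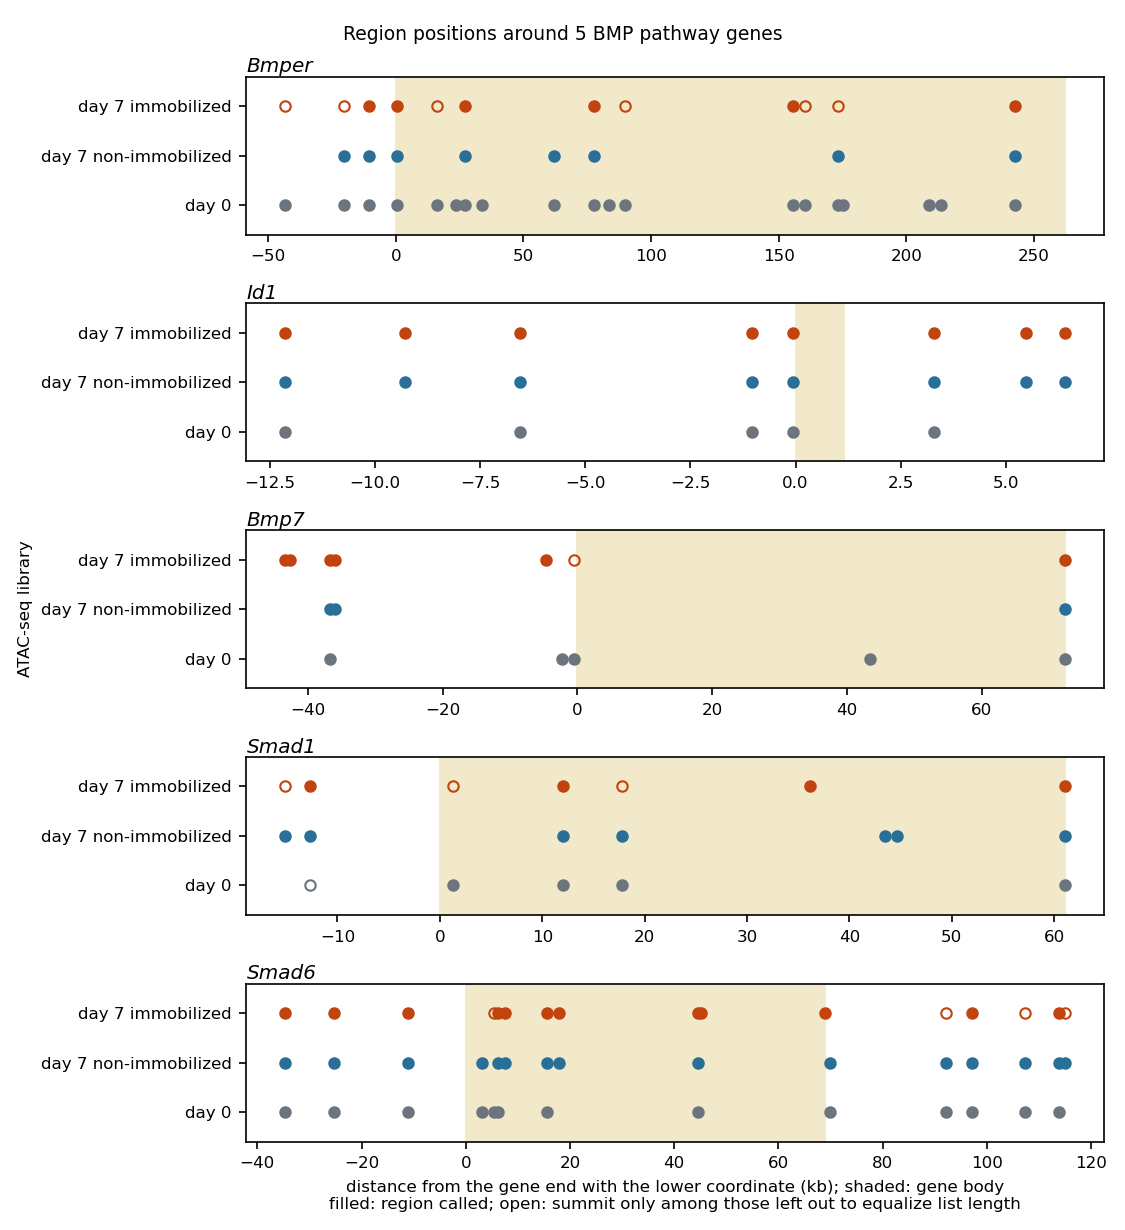
Summits around Bmper, Id1, Bmp7, Smad1 and Smad6, the 5 genes whose one-library counts differed by 3 or more. The x axis is the distance in kb from the gene end with the lower coordinate, shading is the gene body, rows are libraries, filled circles are called regions and open circles are summits left out to equalize the lists. Day 0 has all 19 regions along Bmper, while the immobilized row has 6 filled and 6 open circles; around Id1 the day 0 row lacks 3 of the 8 regions of the day 7 rows.

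Among the antagonists, Bmper stood apart with 4 regions in the immobilized, 5 in the non-immobilized and 10 in the day 0 library. Bmper encodes a secreted protein that binds BMP ligands and can inhibit or promote their signalling. No Bmper region was called at day 7 and not at day 0. Of 15122 genes with a region, 21 (0.139%) had a difference at least as far towards day 0 in the comparison with the immobilized library, and 42 (0.278%) in that with the non-immobilized library. Bmper had 10 regions, against a median of 1 over all genes, and a gene with few regions cannot differ that far. No allowance was made in these shares for the number of regions of a gene. Bmper is a long gene (chromosome 9, 23223076 to 23485215), and 9 further regions inside it lay over 50 kb from either end and were assigned to no gene. With those included, 19 regions lay in or near Bmper: 6 were called in the immobilized library, 8 in the non-immobilized and all 19 at day 0. This wider count was added after the data were seen. Of the 19, 5 were called in all 3 libraries, 3 in the non-immobilized library and day 0, 1 in the immobilized library and day 0, and 10 at day 0 alone.

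The Bmper region 311 bp inside the gene, next to its start, was called everywhere and ranked at 23.4%, 23.6% and 17.5%. The 10 regions of day 0 alone were weaker, ranked from 43.7% to 98.3% with a median of 81.7%. In 4 of them the whole immobilized list held a left-out summit, and that whole list had a summit in 12 of the 19. The non-immobilized list was used in full, so it had no left-out summit to find. With the lists as deposited, the 50 kb rule gave a difference of -4 regions between the immobilized library and day 0 and -8 between the non-immobilized library and day 0. With regions within 10 kb alone it was 0 in both, because the regions of day 0 alone lay farther out. Markers of smooth muscle and pericytes summed to 27, 28 and 37 regions over 6 genes, with none at 0. Rgs5 had 1, 2 and 5 regions, Abcc9 and Myh11 had 2, 3 and 5 each, and Notch3 had 9, 10 and 11. Cspg4 went the other way, with 9, 8 and 7, and Acta2 had 4, 2 and 4. The part of these markers in the Bmper counts was not tested.

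The other antagonists differed by at most 1 region between libraries. Nog (noggin) had 2 regions in every library, Chrd (chordin) 2 and Fst (follistatin) 3, all of them shared. The start of Chrd also held a summit in each library (-20, -23 and 13 bp from it), in a region that lay nearer to the end of another gene. The Fst region 401 bp inside a gene end ranked at 36.9%, 47.4% and 52.5% in the immobilized, non-immobilized and day 0 libraries. Fstl1, a secreted follistatin-like glycoprotein, had 9, 9 and 8 regions. Its start summits lay -2, -3 and -3 bp from the RefSeq start, with ranks of 29.0%, 34.0% and 25.4%. Both regions called at day 7 and not at day 0 lay inside Fstl1, 11.6 kb and 24.3 kb from its nearer end. The nearest day 0 summit to the first was 576 bp away, in the next region, which all libraries shared. Twsg1, which encodes a chordin-binding modulator, had 6, 7 and 7 regions and a start region ranked at 12.4%, 13.2% and 12.3%. Grem1 (gremlin) had no region. The only one within 50 kb of it lay nearest to the neighbouring gene Fmn1, 35.1 kb from Grem1, and was called in the immobilized and day 0 libraries. Without Bmper, the antagonists had few one-library regions: of 8 called at day 0 and not in the immobilized library, 6 were at Bmper, as were 5 of the 8 called at day 0 and not in the non-immobilized library.

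The Id genes had more regions at day 7 than at day 0, 30 in each day 7 library and 24 at day 0, and no region called at day 0 alone. The exact interval for 0 of 32 reaches 10.9%, against a share of 12.2% over all genes. The immobilized library had 8 regions that day 0 lacked and day 0 had 2 (80.0% in the immobilized library, 44.4 to 97.5, against 53.4% over all genes). The non-immobilized library had 6 that day 0 lacked and day 0 had none (100%, 54.1 to 100, against 51.9%). As for the ligands, no allowance was made for the number of roles, comparisons and combinations of libraries looked at. Of the 32 regions, 6 were called in both day 7 libraries and not at day 0, or 18.8% (7.21 to 36.4), against the 8.30% of all genes. These 6 lay at all 4 genes, 3 at Id1 and 1 each at Id2, Id3 and Id4. With the 23956 best summits of each list alone, the immobilized library had 2 Id regions that day 0 lacked and day 0 had 5, the opposite direction, and the non-immobilized library and day 0 had 6 and 4. The shares in the day 7 library were 28.6% and 60.0%, against 51.3% and 52.1% over all genes on those lists.

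Id1, the best known BMP target of the family, had 8 regions in the immobilized, 8 in the non-immobilized and 5 in the day 0 library. The region 56 bp from the gene's lower end was called in all, at ranks of 20.5%, 19.4% and 15.3%, as was a region 1026 bp from that end, at 24.0%, 20.8% and 20.7%. The 3 regions called at day 7 and not at day 0 were on chromosome 2 at 152726706 to 152727213, 152741486 to 152742038 and 152742382 to 152742904. They lay 9.3 kb from the gene on the side of lower coordinates and 4.3 kb and 5.2 kb on the side of higher ones. They ranked at 72.8%, 40.8% and 78.0% in the immobilized library and at 51.7%, 46.9% and 49.9% in the non-immobilized one. The whole day 0 list held no summit in any of them; the nearest were 2742, 2194 and 3112 bp away. Differences of 3 or more towards day 7 were found for 568 genes (3.76%) in the comparison of the immobilized library with day 0 and for 495 (3.27%) in that of the non-immobilized library. Those shares are over all genes with a region, including genes with too few regions to differ by 3. With the 23956 best summits alone the Id1 difference was -1 between the immobilized library and day 0, with the shared region 6.5 kb away ranked at 87.7% in the immobilized library and 33.7% at day 0, and that 12.1 kb away at 68.6% and 47.5%. When every region within 50 kb of Id1 was counted, including those nearer to Cox4i2, Mcts2 and H13, each library had 15.

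Id2 had 6, 6 and 5 regions. Its start summits lay -35, -48 and -98 bp from the start printed above, where GGAGCC stands at -88 bp and GGCGCC at -231 bp, and ranked at 15.0%, 11.1% and 12.9%. The Id2 region of both day 7 libraries was on chromosome 12 at 25119277 to 25119812, 23.5 kb before the gene, and ranked at 70.9% in the immobilized and 22.8% in the non-immobilized library. Id3 had 11, 10 and 9 regions, the most of the family. Its start region ranked at 30.3%, 19% and 25.3%, and a region 26.6 kb before the gene ranked better, at 7.95%, 7.24% and 8.73%. The Id3 region of both day 7 libraries (chromosome 4, 136110456 to 136111015) lay 33.1 kb before the gene and ranked at 61.4% and 89.0%.

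Id4 had 5, 6 and 5 regions and the best-ranked region of all 186. Its start summits lay -177, -181 and -176 bp from the start, where GGCGCC stands at -148 bp and GGAGCC at -13 bp, and ranked at 0.914%, 3.57% and 1.80% in the immobilized, non-immobilized and day 0 libraries. The region called in both day 7 libraries and not at day 0 was 392 bp inside the gene (chromosome 13, 48261257 to 48261758), ranked at 33.5% and 31.7%. The nearest day 0 summit to it was the start summit, 568 bp away. The endothelial markers also had more regions at day 7 than at day 0 (48 and 74 against 33 regions), with 12 of 12 genes higher in the non-immobilized library and 8 of 12 in the immobilized one; Id1 is also expressed in endothelial cells, and their part in the Id counts was not tested.

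**Figure D4:**
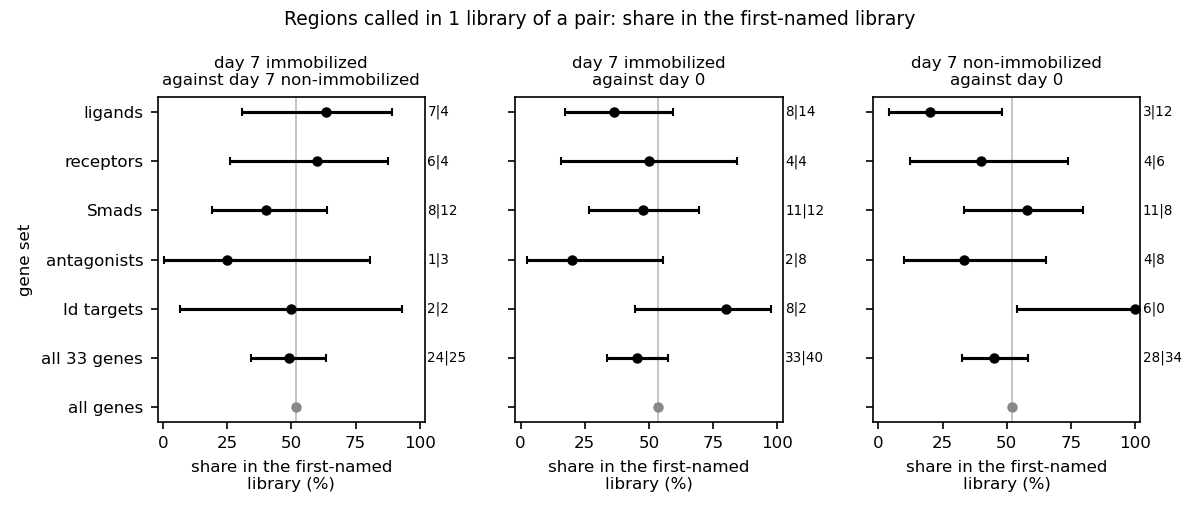
Of the regions called in only 1 library of a pair, the share called in the library named first (x axis, %), by role (rows; bars are exact 95% binomial intervals covering counting error only; numbers at the right are the regions of the first and second library). The grey line is the share over all genes. The Id interval in the non-immobilized library against day 0 (6 and 0 regions) lies above it. The ligand interval there (3 and 12) lies below it, and the other intervals cross it. No allowance was made for the number of intervals.

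Of the 186 regions, 40 lay within 1 kb of a gene end (21.5%, 15.8 to 28.1), against 27.0% over all genes. Of those, 30 of 40 (75.0%) were called in all 3 libraries, against 76.1% over all genes, and of the 146 farther away 64 (43.8%) were, against 38.2%. Shared regions ranked better than the rest. The 94 regions of all 3 libraries had median ranks of 33.6% in the immobilized, 36.5% in the non-immobilized and 36.1% in the day 0 library. Over all genes, regions of all 3 libraries had better median ranks, of 29.1%, 29.3% and 29.1%. Regions called in a single library had median ranks of 80.0% (18 regions, immobilized), 77.5% (13 regions, non-immobilized) and 77.5% (28 regions, day 0), near the 78.6%, 80.1% and 78.8% of all genes. Of the 53 regions not called in the immobilized library, 23 (43.4%) held one of its left-out summits, against 35.9% over all genes. For day 0 this was 3 of 46 (6.52%), against 5.58% over all genes. The non-immobilized list had none left out. Of the 18 regions of the immobilized library alone, 17 had no summit in the other whole lists (94.4%, against 97.3% over all genes). This held for 8 of the 13 of the non-immobilized library alone (61.5%, against 61.4%) and for 17 of the 28 of day 0 alone (60.7%, against 73.2%). The immobilized list had the most left-out summits and was searched only for the non-immobilized and day 0 regions. The shares therefore differ between libraries in part by construction, also over all genes.

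**Figure D5:**
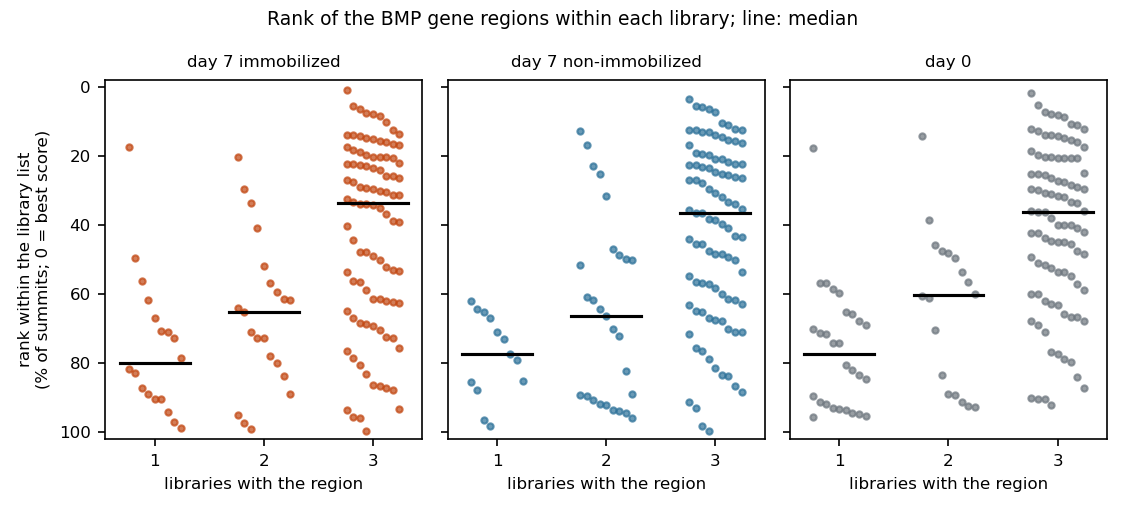
Rank of each BMP gene region within its library's list (y axis, % of summits, 0 is the best score and is at the top), by the number of libraries in which the region was called (x axis); the line is the median. Regions of all 3 libraries spread over the whole range with medians of 33.6%, 36.5% and 36.1%, and those of a single library lie mostly in the lower part, with 2 of 18 (immobilized), 0 of 13 (non-immobilized) and 1 of 28 (day 0) among the 23956 best summits of a list.

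The wider pathway was described with 62 further genes: other ligands and receptors, co-receptors, Smad regulators, antagonists, proteases and targets. They had 229, 227 and 218 regions in the immobilized, non-immobilized and day 0 libraries, and 54 of the 62 had at least 1 region. Among those with none were Bmp10, Bmp15, Gdf2, Gdf3, Mstn, Inha and Vwc2; Bmp15 is X-linked, and the lists hold chromosomes 1 to 19 only. In the immobilized library against the non-immobilized one, more regions were called in the immobilized library for 13 genes and in the non-immobilized one for 19. In the immobilized library against day 0 the counts were 21 and 16 genes, and in the non-immobilized library against day 0 they were 19 and 13. Such gene counts were not made over all genes. The shares of one-library regions in the first library were 51.0%, 54.2% and 54.2%, near the 51.7%, 53.4% and 51.9% of all genes.

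The secreted antagonist gene Sostdc1 and the transcription factor gene Gata3 had 6 regions each in the immobilized library and 2 each in the non-immobilized and day 0 libraries. Both differences run in the order of the keratinocyte markers (56, 17 and 13 regions), and the part of those was not tested. Tgfbr3, a co-receptor gene, had 14, 10 and 11 regions and Zeb2, which encodes a Smad-interacting repressor, had 10, 7 and 11. The non-immobilized library had the most regions at Ski, a Smad corepressor gene (10, 13 and 9), and at the target Atoh8 (11, 14 and 12). Both day 7 libraries had more regions than day 0 at Crim1, which encodes a membrane protein that binds BMPs (5, 4 and 1), and at Smad3, a TGF-beta Smad gene (18, 19 and 15), and the immobilized library did at Smad2 (4, 2 and 1). Day 0 had the most at the antagonist Chrdl2 (5, 5 and 8), the ubiquitin ligase gene Smurf1 (6, 7 and 10) and the target Tbx3 (5, 8 and 10). Differences of 3 or more towards the first and second library were found for 4 and 3 of the 62 genes between the day 7 libraries. They were found for 6 and 3 (immobilized) and 3 and 3 (non-immobilized) against day 0. Over all genes with a region these were 2.39% and 1.87%, 3.76% and 2.39%, and 3.27% and 2.49%. The 62 genes had a median of 4 regions, against 1 over all genes.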

How the data were processed

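Summit lists of 3 ATAC-seq libraries, 1 per group, were analysed, with groups taken from the sample labels. Per the submitters' processing notes, reads were handled with Bowtie2 2.3.4.1 (aligner), Trim Galore and cutadapt (trimming), FastQC, Picard, bedtools 2.28.0, SAMtools 1.2, edgeR 3.26.5 and MACS2 2.1.2 (peak caller), on build mm10. The sources used here do not give parameters, read shifting or the peak cutoff. The deposited lists give 1 summit position per peak, called per library, with the authors' score, read as a −log10 p or q (which of them is not stated) and used here only to rank summits within a list. Per the file headers, the run statistics hold a count of reads, a fraction of duplicates and a percent of aligned reads: 92.5% in the immobilized, 89.9% in the non-immobilized and 90.9% in the day 0 library. Pairs after duplicates are the product of these and an upper estimate.

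Each list was reduced to its 47912 best summits, so the lowest score used was 6.61, 1.33 and 4.00. Summits were widened by 250 bp on each side, overlapping or touching windows of the 3 libraries were merged, and each region was assigned by its best-ranked summit to the closest end of a protein-coding gene, up to 50 kb away (RefSeq gene table of GRCm38.p6, the assembly of mm10). That table gives no strand, and starts and strands came from the RefSeq start table. No genome sequence was used, so no region sequence is shown. Positions count from 1. Region building was checked on simulated data with regions far apart, so that check did not cover close neighbouring summits.

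The 33 genes and the pathway and marker lists were chosen with earlier results of these data known. All 33 genes are accounted for. Positions are given for genes whose one-library counts differed by 3 or more, regions within 1 kb of a gene end are given in full or as counts, the Id genes are given in any case, and pathway genes with a difference of 3 or more are named. The alternatives tried were the 23956 best summits, lists as deposited, other window widths and distances, other gene assignment, regions over 1 kb from a gene end, and strong regions absent from the other whole list. Counting every region inside or within 50 kb of a gene was added after the data were seen. The tools were matplotlib 3.10.9, pandas 2.3.3, numpy 2.4.6 and scipy 1.17.1 under Python 3.11.15.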

Additional observations from a re-analysis of the deposited data

Results flagged for a closer look

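For 4 genes the number of regions differed from day 0 in opposite directions in the day 7 libraries. The differences, as the regions in the day 7 library minus those at day 0, were 1 in the immobilized and -2 in the non-immobilized library for Bmp7, and 1 and -1 for Bmpr2. They were -1 and 2 for Smad6, and 1 and -1 for Smad7. Each group is 1 library, both differences share the day 0 library, and the difference between them was not tested. With the lists as deposited, Smad6 had 2 more regions in the immobilized than in the non-immobilized library, the opposite of the order on lists of equal length.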

How the results depend on the processing

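No paired analysis was possible because each group is 1 library. Of the 57 alternative values for the 3 comparisons and the region counts, 43 kept within the counting interval or 1.5 times of the reported value and 14 did not. The 14 include, for each library, the region counts with the 23956 best summits, within 10 kb and with every region within 50 kb. Those settings change the number of regions by construction, so the tally does not measure robustness. With the lists as deposited, 82.2% of the one-library regions were in the immobilized library against the non-immobilized one (80.6% over all genes) and 65.6% against day 0 (73.1% over all genes). By construction, that setting compares lists of unequal length. Strong regions alone (23956 best summits) that held no summit of the other library's whole list were also compared. The shares were 66.7% (2 and 1 regions) for the immobilized against the non-immobilized library and 66.7% (6 and 3) for the immobilized library against day 0. For the non-immobilized library against day 0 the share was 87.5% (7 and 1). Those whole lists also differ in length, with 67404 (immobilized), 47912 (non-immobilized) and 51722 summits (day 0). No share over all genes was computed for this setting. The regions per library (immobilized, non-immobilized, day 0) were 65, 69 and 71 with the 23956 best summits, 72, 74 and 80 within 10 kb, and 211, 223 and 223 with every region inside or within 50 kb of a gene of the set, the last chosen after the data were seen. Among single genes, 4 values changed sign. The immobilized minus non-immobilized difference was 2 for Smad1 and 2 for Smad6 with the lists as deposited, the immobilized minus day 0 difference was -1 for Id1 with the 23956 best summits, and the non-immobilized minus day 0 difference was -1 for Smad1 within 10 kb. The cause was not tested. The Bmper difference from day 0 ran from -13 to 0 regions in the immobilized and from -11 to 0 in the non-immobilized library, at 0 within 10 kb and for strong regions with no summit in the other whole list, and at -1 and -2 with the 23956 best summits of each list. No share could be given where a setting left no one-library region. With 1 library per group, the spread between animals or cultures is unknown.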

Other observations

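Regions inside 5 genes of the set lay over 50 kb from any protein-coding gene end and so were assigned to no gene. Bmper had 9 of them, called 2, 3 and 9 times in the immobilized, non-immobilized and day 0 libraries. Bmpr1b had 4 (2, 3 and 1), Bmp6 had 3 (2, 3 and 3), Acvr1 had 3 (1, 2 and 0) and Bmp5 had 1, called at day 0 alone. The single region within 50 kb of Grem1, on chromosome 2 at 113713359 to 113713862, was 3.2 kb from an end of Fmn1 and ranked at 71.3% in the immobilized and 84.0% in the day 0 library.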
